A study of Homo sapiens with 8 samples.

Results

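The departure from additivity is the part of the response to 2 compounds given together that the 2 single responses, added up, do not account for. It was measured for 10792 genes with a mean intensity over 100 across 8 arrays, of 19775 genes on the array, in CUTLL1 cells, a line from a human T-cell acute lymphoblastic leukemia (T-ALL) with constitutively active NOTCH1. Cells received PF-03084014 and dexamethasone together (the combination), PF-03084014 alone, dexamethasone alone, or the vehicle DMSO, with each compound at 1 microM, for 48 h and on 2 arrays per group. For each gene the 3 other groups gave an expected sum on the log2 scale, the PF-03084014 mean plus the dexamethasone mean minus the DMSO mean, and the departure was the combination mean minus that sum. A positive value means more RNA than the sum and a negative value less, and additive on this scale means that fold changes multiply. Just outside the limit of 100 were H1-5 and IGSF3 (departures 0.20 and -0.31), and just inside TIRAP and SMIM24 (0.62 and -0.15). One line stands for the disease here, so the values describe this line at 1 dose and 1 time. The labels do not say whether the 2 arrays of a group came from separate cultures, and the p-values rest on the spread between arrays alone, which may be technical.

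As background, PF-03084014 inhibits gamma secretase, the protease that releases the active part of NOTCH receptors, and so lowers NOTCH targets such as HES1 and NRARP. Dexamethasone binds the glucocorticoid receptor, encoded by NR3C1, which moves to the nucleus, induces genes such as TSC22D3 and FKBP5 and kills sensitive lymphoid cells. That killing depends in large part on BCL2L11 (BIM), a BH3-only protein that neutralises survival members of the BCL2 family. IL7R, the receptor chain for interleukin 7, is both a NOTCH1 target in T-lineage cells and a gene that glucocorticoids induce.

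The arrays of the combination agreed least with each other. The log2 difference between replicates had an SD over the described genes of 0.41 for the combination, 0.17 for PF-03084014, 0.17 for dexamethasone and 0.217 for DMSO. The second combination array stood apart, with a median intensity of 76.3 over all probe sets against 61.8 to 63.9 on the 7 others. All 9 T-lineage check genes exceeded an intensity of 100, with CD3D highest, and so did 2 of 11 myeloid, 2 of 10 B-lineage and 2 of 11 stromal and epithelial markers. The summed B-lineage markers read 1110 and 1570 on the combination arrays and 928 to 1080 on the others, and the stromal and epithelial markers 817 and 1290 against 707 to 839. The summed myeloid markers read 486 and 729 against 611 to 761, so the first combination array was the lowest and the second lay within the range of the others. The part of these values in the departures was not tested. In bulk RNA, fewer cells expressing a gene and less RNA per cell cannot be told apart.

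No gene departed from the sum at a limma adjusted p under 0.05, two-sided and adjusted over 19775 genes (0 of 10792 described genes, 0%). The smallest adjusted p was 0.306. At an unadjusted p under 0.05 there were 1161 of the 10792 genes (10.8%), of which 305 lay above the sum (2.83%) and 856 below it (7.93%). The median departure of the described genes was -0.062, from the 5th to the 95th percentile departures ran from -0.495 to 0.533, and the median standard error was 0.161. Values are therefore given with their standard errors, or 95% intervals, and the counts at an unadjusted p are descriptions. When all arrays were shifted to a common median the median departure became -0.214, so each gene group is set beside the value for all genes. The shift lowers the departure of every gene by the same amount, so small positive departures turn negative under it.

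Of the 305 genes above the sum at an unadjusted p under 0.05, 142 had a combined level above DMSO and above an expected increase, which is the pattern called synergy for an increase. For 129 the combined level was above DMSO although the sum lay below it, and for 34 a decrease was smaller than the sum. Of the 856 genes below the sum, 428 had a combined decrease larger than expected, 299 lay below DMSO although the sum lay above it, and 129 had an increase smaller than the sum. Among all described genes the same 6 classes, in that order, held 2442, 1018, 827, 2610, 1743 and 2152 genes. The sum and the departure share the PF-03084014, dexamethasone and DMSO arrays, so an error in those arrays moves them in opposite directions.

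The 2 combination arrays lay on the same side of the sum for 7220 of the 10792 genes (66.9%), with 2629 both above and 4591 both below. Both are compared with 1 shared sum, so an error in that sum also puts them on the same side. The second array was the farther one in 67.5% of genes. Both arrays were at least 1 log2 unit above the sum for 13 genes (0.12%) and at least 1 below it for 14 (0.13%). On the linear intensity scale, where increments rather than fold changes are added, the departure had the same sign for 10414 genes.

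**Figure D1:**
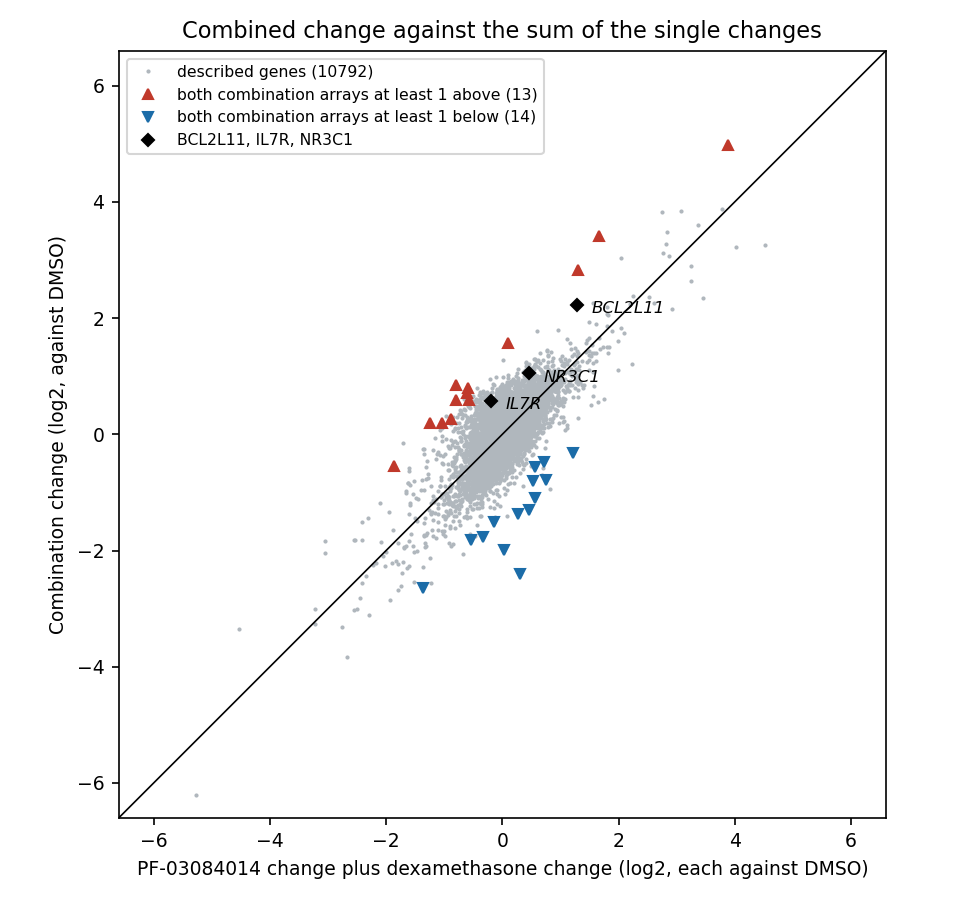
Combined change against the sum of the single changes, both in log2 units against DMSO, with 1 point per described gene and a line where they are equal. Most of the 10792 genes lie along the line, the 13 genes with both combination arrays at least 1 above and the 14 at least 1 below stand off it, and BCL2L11, NR3C1 and IL7R lie above it.

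BCL2L11 read 3115 and 3265 in the combination, against 759 and 858 under PF-03084014, 1395 and 1397 under dexamethasone and 667 and 692 under DMSO. Both combination arrays were higher than all others, the dexamethasone arrays came next, and the PF-03084014 arrays lay only just above those with DMSO. BCL2L11 rose 4.69-fold with the combination (2.23 ± 0.068 log2, limma adjusted p 0.0011) and rose with dexamethasone alone (1.04 ± 0.068, adjusted p 0.029), while the PF-03084014 difference of 0.25 ± 0.068 was not called. The departure was 0.94 ± 0.10 log2 units, with a 95% interval of 0.70 to 1.19, an unadjusted p of 0.000127 and a limma adjusted p of 0.306. In linear terms the combination mean was 1.92 times the level that multiplied single effects give. All 7 BCL2L11 probe sets had a positive departure, from 0.32 to 1.62 over the 6 with a mean over 100.

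IL7R was the marker whose single responses ran in opposite directions. It read 9183 and 9864 after both compounds, 4559.5 and 4588 after PF-03084014 by itself, 7686 and 7849 after dexamethasone by itself and 6562 and 6168 after DMSO. The combination arrays were the highest of the 8, the dexamethasone arrays followed, and the PF-03084014 arrays were lowest, with no overlap between any of the 4 groups. IL7R fell with PF-03084014 alone (-0.48 ± 0.051 log2, limma adjusted p 0.0337), and rose when PF-03084014 was added to dexamethasone (0.29 ± 0.051, adjusted p 0.0369). Its difference of 0.29 ± 0.051 between dexamethasone alone and DMSO was not called (limma adjusted p 0.21). The departure was 0.77 ± 0.073 (95% interval 0.59 to 0.95, adjusted p 0.306). A second IL7R probe set, with a mean intensity of 3257, gave 1.10 ± 0.44. On it the combination lay at the DMSO level (-0.05 log2), with -1.37 for PF-03084014 and 0.22 for dexamethasone. A combined level above DMSO was thus seen only on the probe set used.

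NR3C1, the receptor that dexamethasone binds, read 6631 and 6413 with both compounds, 3430.4 and 3555 with PF-03084014 only, 3947 and 3906 with dexamethasone only and 2932 and 3384 with vehicle. The single compounds gave levels a little above DMSO, and both combination arrays exceeded all 6 others. NR3C1 rose with the combination (1.05 ± 0.072, limma adjusted p 0.00342) and neither single change was called (0.15 ± 0.072 with PF-03084014 and 0.32 ± 0.072 with dexamethasone). The departure was 0.58 ± 0.10 (95% interval 0.32 to 0.84, adjusted p 0.319), and all 5 NR3C1 probe sets, each with a mean over 100, lay above the sum by 0.56 to 0.84. For these 3 markers the departure was positive under all 19 alternative settings that give a test. Settings that change only the errors, such as array weights or a replicate block, left it as it was and could not change its sign. Without the first combination array the departure was 0.98 for BCL2L11, 0.82 for IL7R and 0.56 for NR3C1. Without the second it was 0.91, 0.72 and 0.61. Each of these fits rests on 1 combination array, so only the sizes are given.

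**Figure D2:**
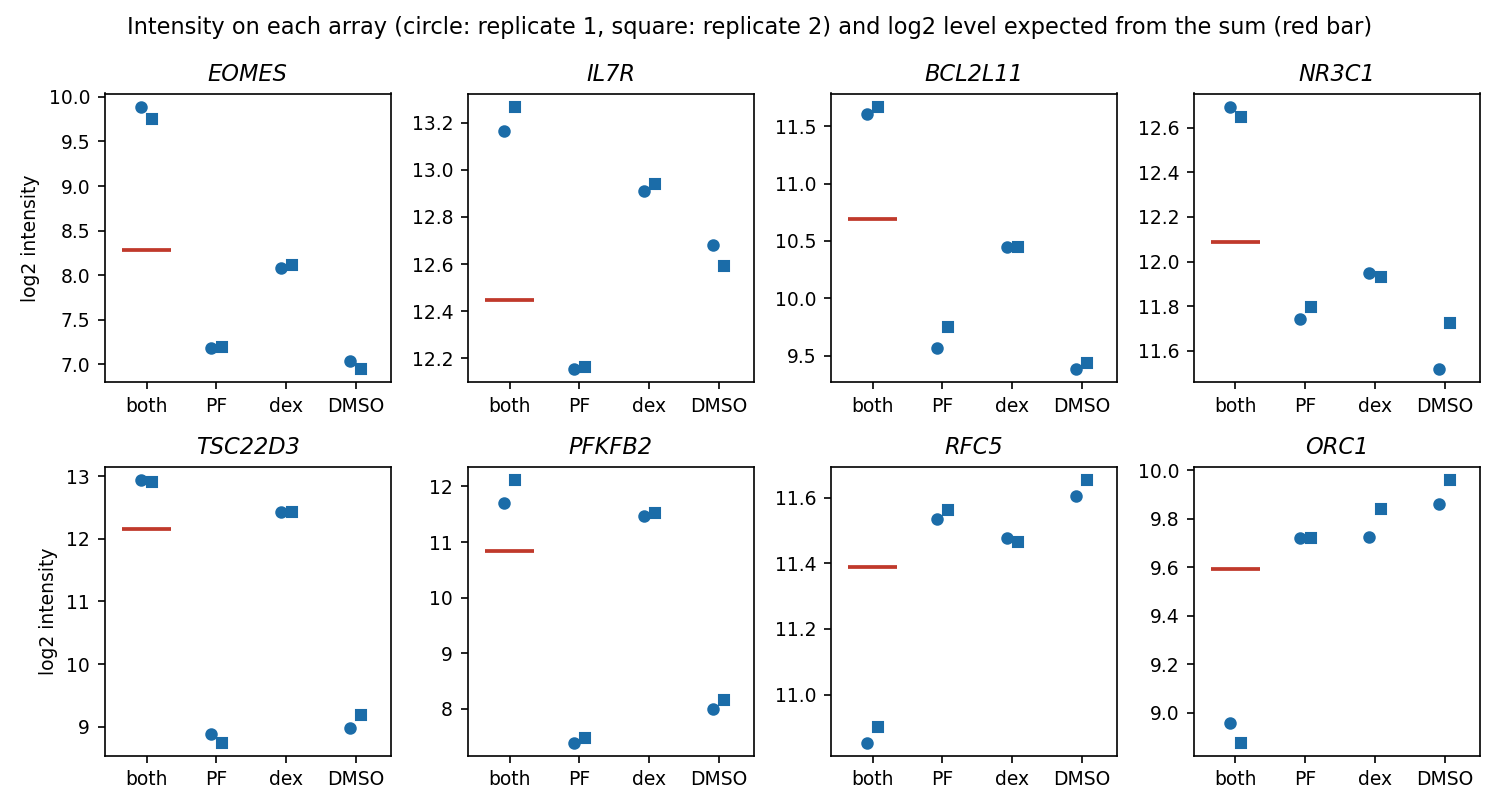
Log2 intensity on each array for 8 genes, by group from the combination (both) at the left through PF-03084014 (PF) and dexamethasone (dex) to DMSO at the right, with a red bar at the expected sum and axes that do not start at zero. EOMES, IL7R, BCL2L11, NR3C1, TSC22D3 and PFKFB2 have both combination arrays above the bar, and RFC5 and ORC1 have both below it.

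**Figure D3:**
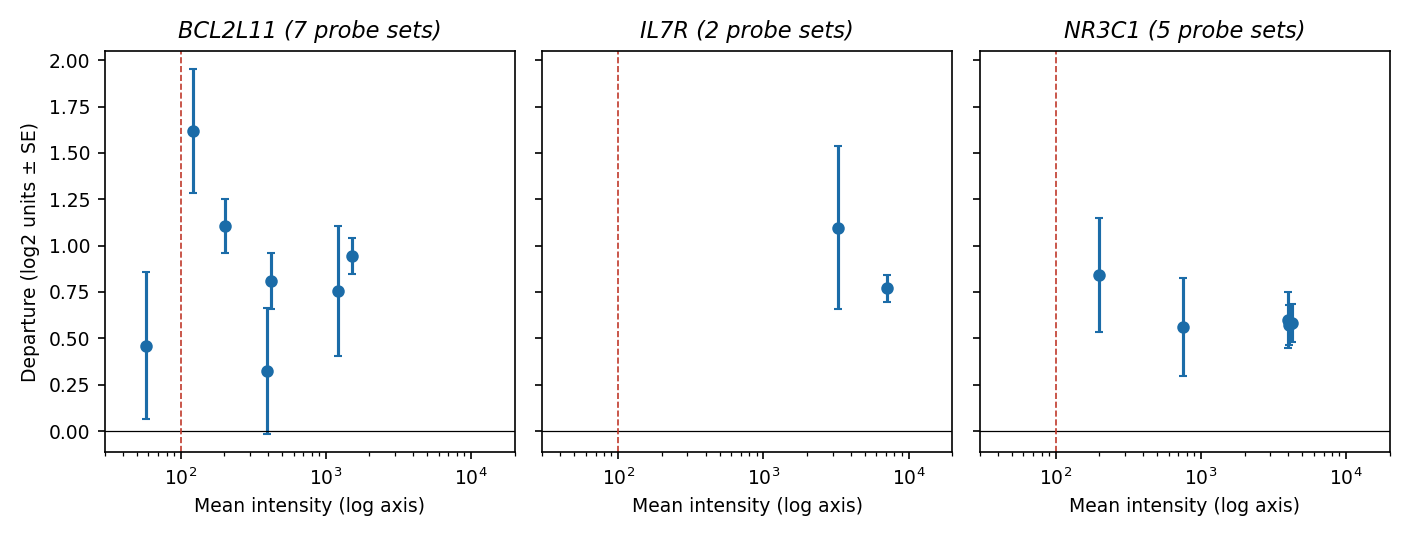
Departure of each probe set of BCL2L11, IL7R and NR3C1 in log2 units, with bars of 1 standard error from limma, against the mean intensity of the probe set on a log axis. A broken line marks an intensity of 100, and all 7 BCL2L11, both IL7R and all 5 NR3C1 probe sets lie above zero.

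The smallest p of all described genes belonged to EOMES, a T-box transcription factor of effector T cells and natural killer cells. It read 949.7 and 865 in the combination, against 145 and 146 under PF-03084014, 269.9 and 276 under dexamethasone and 132 and 123 under DMSO. The combination arrays stood well above every other array, and PF-03084014 arrays lay close to those with DMSO. EOMES rose with dexamethasone alone (1.10 ± 0.092, limma adjusted p 0.0466) and with the combination (2.83 ± 0.092, adjusted p 0.00124), and its departure of 1.54 ± 0.13 had an unadjusted p of 4.99e-05 and an adjusted p of 0.306. The gene has a single probe set here.

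Both combination arrays were also at least 1 log2 unit above the sum for PIGR (1.14), ZDHHC22 (1.23), C15orf32 (1.48), DRP2 (1.39), CRIM1 (1.16), GHRLOS (1.39), IRF4 (1.32), ZNF705G (1.43), TMEM178B (1.65), IGFBP3 (1.75) and LOC101927432 (1.11), and for CD151 (1.33). Several of these values moved with the processing. LOC101927432, with 2 arrays at the floor, had 0.58 without PF-03084014 replicate 1. With the mean of all probe sets DRP2 had 0.11, GHRLOS 0.48, IRF4 0.44 and PIGR 0.66. Most were dim: 12 of the 13 genes had a mean intensity under 400 and the median was 171, against 936 for all described genes. The second combination array was the farther one for 9 of the 13. IRF4, a lymphoid transcription factor, read 191 and 272 after both compounds, 170.1 and 150.1 after PF-03084014 by itself, 62.3 and 101 after dexamethasone by itself and 145 and 133 after DMSO. It was lowest with dexamethasone, and rose when PF-03084014 was added to dexamethasone (1.52 ± 0.29, limma adjusted p 0.0448). CRIM1, a membrane protein that binds bone morphogenetic proteins, was the only one of the 13 with a mean over 400 and read 1892 and 1794 with both compounds, 1755 and 1503 with PF-03084014 only, 606 and 636 with dexamethasone only and 1578 and 951 with vehicle. Its dexamethasone arrays were the lowest, its combination arrays the highest, and all 3 of its probe sets lay above the sum. The CRIM1 departure was 0.80 without the first DMSO array and 1.53 without the second. IGFBP3, which binds insulin-like growth factors, read 669.5 and 447 in the combination, against 189 and 93.3 under PF-03084014, 52.5 and 74.7 under dexamethasone and 73.8 and 35.6 under DMSO. Its combination arrays were the highest, and the replicates of every group were far apart.

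The 14 genes with both arrays at least 1 below the sum had a median intensity of 474. For 11 of them the DMSO arrays differed at least 2-fold from each other, which was so for 58 of the 10792 described genes. Several are known targets of the hypoxia response: BNIP3, a mitochondrial protein of the BH3-only class, ADM, the vasodilator peptide adrenomedullin, AK4, a mitochondrial adenylate kinase, BHLHE40, a transcriptional repressor, PFKFB4, a regulator of glycolytic flux, and MIR210HG, the host transcript of miR-210. PFKFB4 read 262 and 499.99 after both compounds, 846 and 696 after PF-03084014 by itself, 1337 and 1415 after dexamethasone by itself and 414 and 2113 after DMSO. The second DMSO array was the highest of the 8 and the first DMSO array was among the lower ones, so the groups overlapped. The PFKFB4 departure was -1.64 ± 1.10 with all arrays, -0.47 without the first DMSO array and -2.82 without the second.

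The same pair of values, without the first and without the second DMSO array, was -0.87 and -2.43 for MIR210HG (-1.65 with all arrays), -0.74 and -2.35 for BNIP3 (-1.54 with all arrays), -0.57 and -2.52 for AK4 (-1.54 with all arrays), -0.62 and -1.94 for ADM (-1.28 with all arrays), -0.37 and -2.20 for BHLHE40 (-1.28 with all arrays) and -0.69 and -1.96 for KDM7A-DT (-1.33). All stayed below the sum, and the size depended on which DMSO array was used. Of these genes ADM fell with the combination against DMSO (-2.65 ± 0.44, limma adjusted p 0.0211). TENT5A (-2.70 ± 2.07) and REXO1L1P (-2.01 ± 1.41) had replicates far apart in several groups, with 109 and 1 for TENT5A on the combination arrays. The remaining genes below were FAM13A, DUSP18, MTFP1, LDHC and IGHV1-69. MTFP1, a factor of mitochondrial fission, read 451 and 347 with both compounds, 933 and 855 with PF-03084014 only, 1347 and 1227 with dexamethasone only and 862 and 1463 with vehicle. Its combination arrays were the lowest pair, and it fell with the combination (-1.50 ± 0.27, adjusted p 0.0268), with a departure of -1.37 ± 0.38. LDHC, a testis form of lactate dehydrogenase, fell as well (-1.77 ± 0.29, adjusted p 0.0204), with a departure of -1.43 ± 0.40.

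Gene families were described by the number of members above and below the sum and by their median departure, beside -0.062 for all described genes. Some genes belong to more than 1 family. Leaving out the 3 marker lists of other cells, which had 2 described genes each, family medians ran from -0.36 for BH3-only death genes to 0.30 for metallothioneins and zinc transporters. Each family count at an unadjusted p under 0.05 stands against 2.83% of all described genes above the sum and 7.93% below it. In the larger ones the 2 combination arrays gave medians of the same sign at the lower end of the order, from the mitochondrial respiratory chain down to glycolysis, and often of opposite sign in its middle.

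**Figure D4:**
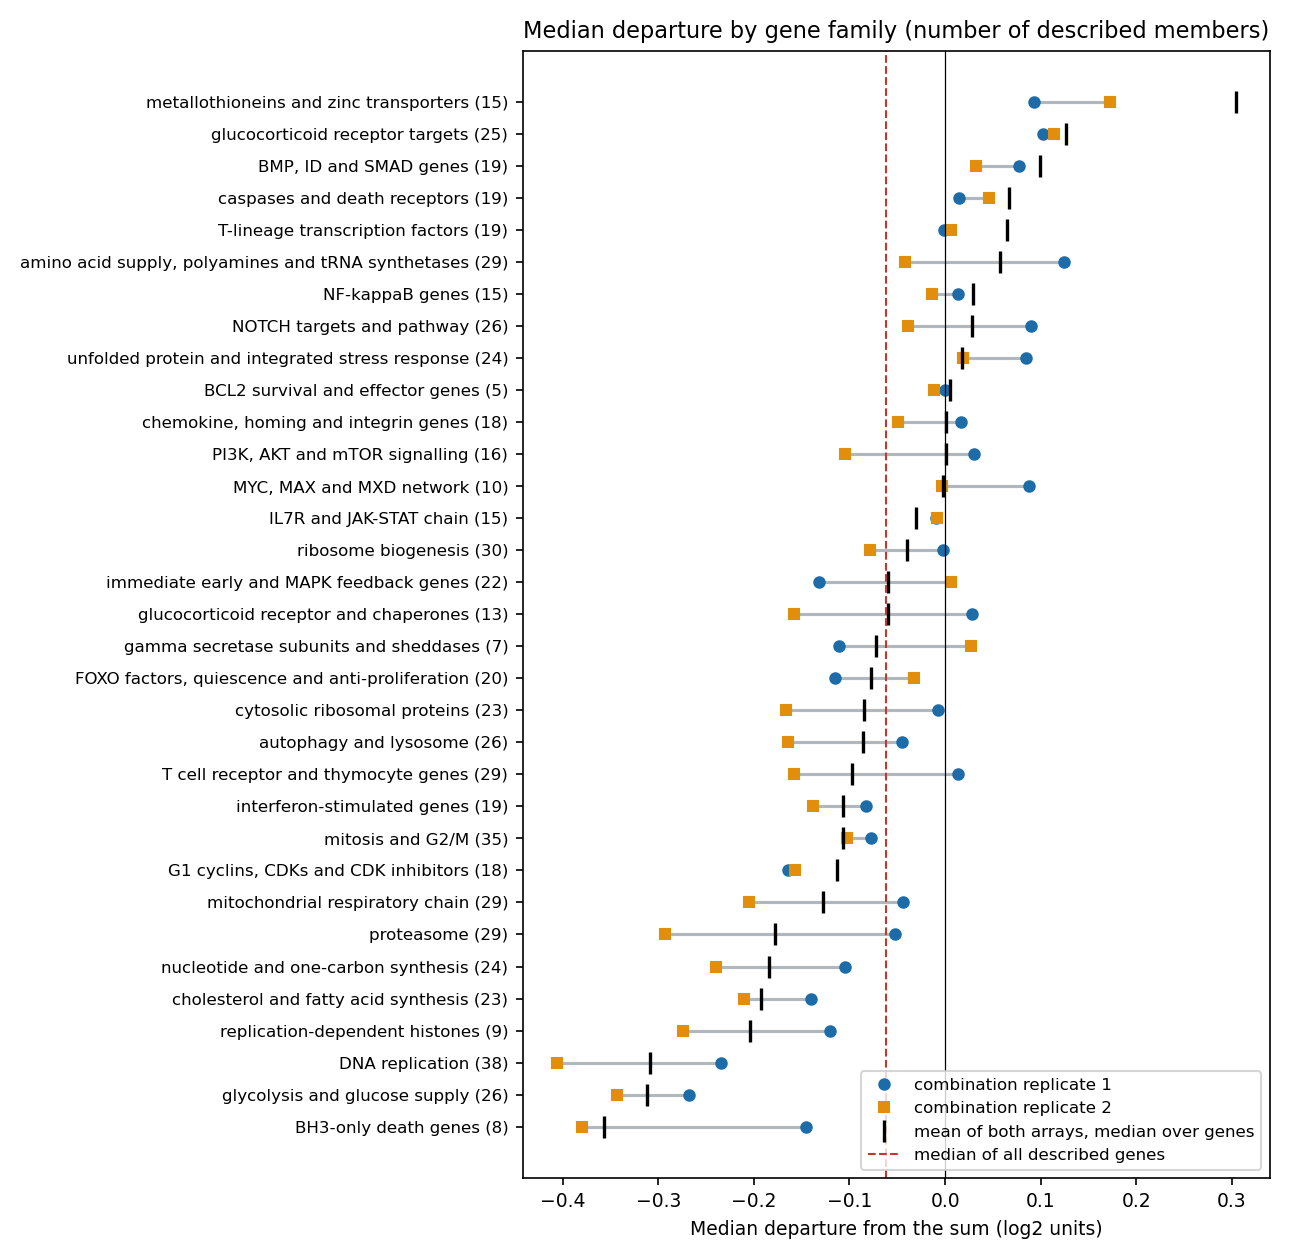
Median departure of each gene family in log2 units, with the median for each combination array and, as a broken line, the median of all described genes. DNA replication (38 genes) and glycolysis (26 genes) lie near -0.31 with both arrays below zero. Glucocorticoid receptor targets (25 genes) lie at 0.13 with both arrays above zero. When all arrays are shifted to a common median, the value of the receptor targets becomes -0.026 and that of all described genes -0.214.

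Glucocorticoid receptor targets had a median departure of 0.13, with 0.10 and 0.11 for the 2 combination arrays, and it became -0.026 when all arrays were shifted to a common median (-0.214 for all genes then). Of the 25 described members 7 lay above the sum at an unadjusted p under 0.05 and 1 below, and both combination arrays exceeded all 6 others in 15, against 16.6% of all described genes. Against DMSO, 18 of the 25 rose with the combination (10.4% of all described genes), 5 with dexamethasone (0.158%) and 3 with PF-03084014 (0.815%). Against dexamethasone alone, 12 of the 25 rose when PF-03084014 was added (4.98%). TSC22D3 (GILZ), a leucine zipper protein that carries part of the anti-inflammatory action, read 7836 and 7697 in the combination, against 475 and 429.7 under PF-03084014, 5526 and 5478 under dexamethasone and 506 and 583 under DMSO. The combination arrays were highest, the dexamethasone arrays next, and those with PF-03084014 lay below DMSO. Its departure was 0.76 ± 0.12 (95% interval 0.47 to 1.06, limma adjusted p 0.319). Of its 3 probe sets, 1 dim one gave -0.051.

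PFKFB2, a bifunctional regulator of glycolysis that glucocorticoids induce in lymphoid cells, read 3329 and 4432 after both compounds, 168 and 178 after PF-03084014 by itself, 2822 and 2958 after dexamethasone by itself and 257 and 288 after DMSO. It was ordered as TSC22D3 was, and departed by 1.06 ± 0.20 (adjusted p 0.319). ISG20, an exonuclease, departed by 0.40 ± 0.12 and BTG1, an anti-proliferative factor, by 0.16 ± 0.055. FKBP5, a receptor co-chaperone and a standard readout of the receptor, read 12873 and 12018 with both compounds, 7486 and 7720.2 with PF-03084014 only, 9736 and 9957 with dexamethasone only and 5932 and 6398 with vehicle. It rose with dexamethasone and with the combination. On its brightest probe set the departure of 0.034 ± 0.08 had a 95% interval of -0.17 to 0.23. Its other probe sets, with mean intensities of 3694 and 306, gave 0.33 ± 0.11 and 0.41 ± 0.26. DUSP1, a MAP kinase phosphatase, lay below the sum on its only probe set with a mean over 100 (-0.31 ± 0.069), with the combination arrays at the level of PF-03084014 alone. TXNIP, a thioredoxin inhibitor, had -0.61 ± 0.29, and its call in the combination (2.63 ± 0.21 against DMSO, adjusted p 0.004) came with single differences of 1.59 and 1.66. SGK1 (0.13 ± 0.15) rose with PF-03084014 and with the combination, and RGS1 (0.62 ± 0.24), a regulator of G protein signalling, fell with both.

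The NOTCH family had a median departure of 0.028, which was -0.12 after the shift to a common median, with 3 of 26 members above and 3 below the sum at an unadjusted p under 0.05 (2.83% and 7.93% of all described genes). Against DMSO, 8 members fell with PF-03084014 (0.51% of described genes) and 8 with the combination (9.23%). The HES repressors are direct NOTCH targets. HES1 read 309 and 246 in the combination, against 424 and 342 under PF-03084014, 1346 and 1236 under dexamethasone and 1242 and 1296 under DMSO. The combination arrays were the lowest and the PF-03084014 arrays next, while the dexamethasone arrays stood at the DMSO level. The departure was -0.49 ± 0.21 for HES1, -0.67 ± 0.36 for HES4, -1.03 ± 0.18 for HES5 and -0.55 ± 0.20 for NRARP, a feedback inhibitor of NOTCH. The 95% intervals of HES1 (-1.03 to 0.045) and HES4 (-1.57 to 0.23) held zero. A dimmer HES1 probe set, with a mean intensity of 346, gave -0.80 ± 0.14. With 1 array left out the departure ran from -0.66 to -0.33 for HES1, -1.06 to -0.28 for HES4 and -0.74 to -0.36 for NRARP, in each case smallest without combination replicate 2. For NRARP the linear scale gave the opposite sign, with a combination mean of 593 and an expected intensity of 518.

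The NOTCH targets DTX1, MYC and PTCRA had intervals that held zero too. DTX1, a NOTCH regulator, read 767 and 651 after both compounds, 672 and 659 after PF-03084014 by itself, 3379 and 3260.4 after dexamethasone by itself and 2959.9 and 3096 after DMSO. The combination arrays overlapped those with PF-03084014 alone, and the departure of -0.047 ± 0.12 had an interval of -0.34 to 0.25. MYC read 4145 and 3572 with both compounds, 3791 and 3558 with PF-03084014 only, 4916 and 4628 with dexamethasone only and 4878 and 4256 with vehicle, and departed by 0.0011 with an interval of -0.36 to 0.36. Neither MYC single change nor its combined change was called. PTCRA, the pre-T cell receptor alpha chain, fell with PF-03084014 (-0.77 ± 0.04), rose with dexamethasone (0.52 ± 0.04) and fell with both together (-0.38 ± 0.04), with a departure of -0.13 ± 0.056. The receptors NOTCH1 (0.16 ± 0.086) and NOTCH3 (0.18 ± 0.37) had intervals that held zero, as did the gamma-secretase subunit NCSTN (0.21 ± 0.093).

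Among 8 described BH3-only genes the median was -0.36, with -0.145 and -0.38 for the 2 combination arrays. It was -0.145 without combination replicate 2. Only BCL2L11 and BMF had departures above zero. BMF, another activator of cell death, read 579 and 518 in the combination, against 71.5 and 100.4 under PF-03084014, 247 and 284 under dexamethasone and 59.0 and 54.4 under DMSO. It rose with the combination (3.27 ± 0.20, limma adjusted p 0.00307), its dexamethasone arrays were far above DMSO, and the departure was 0.47 ± 0.29 with an interval of -0.25 to 1.19. The 6 members below were BNIP3 (-1.54), BIK (-0.88), BNIP3L (-0.47), BAD (-0.40), BID (-0.31) and PMAIP1 (-0.14), and none of these had an unadjusted p under 0.05. Survival members of the BCL2 family lay near the sum: BCL2L1 departed by -0.15 ± 0.045, BCL2 by 0.17 ± 0.13 and MCL1 by 0.057 ± 0.11 (95% interval -0.22 to 0.34). BCL2L1 and BCL2 rose with the combination by 0.39 and 0.44 log2 units. CASP8, the initiator caspase of death receptors, departed by 0.36 ± 0.10 and rose with the combination by 0.72 ± 0.069. The 19 described caspase and death receptor genes had a median of 0.067, and -0.085 after the shift to a common median.

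DNA replication genes lay below the sum together. Of 38 described members 37 had both combination arrays below it, against 4591 of all 10792 described genes. The median departure was -0.31, with -0.23 and -0.41 for the 2 combination arrays. At an unadjusted p under 0.05, 23 members lay below and 0 above (7.93% and 2.83% of all described genes), and limma called 0 of the 38 after adjustment. Both combination arrays were lower than all 6 others for 32 members, against 17.2% of described genes. Against DMSO, 24 of the 38 fell with the combination (9.23% of described genes), 0 with PF-03084014 (0.51%) and 0 with dexamethasone (0%). Against dexamethasone alone, 22 of the 38 fell when PF-03084014 was added (6.67%). The median change against DMSO was -0.47 for the combination, -0.055 for PF-03084014 and -0.13 for dexamethasone. Under the 12 settings in which family medians were recomputed, this one lay between -0.461 and -0.234. Other families were also one-sided, though with medians nearer zero. Departures were below zero for 28 of 29 respiratory chain genes, 28 of 29 proteasome genes and 23 of 24 nucleotide synthesis genes. For cytosolic ribosomal proteins this was so for 22 of 23, and among all described genes for 6505 of 10792.

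RFC5, a subunit of the clamp loader replication factor C, read 1851 and 1912 after both compounds, 2967 and 3024 after PF-03084014 by itself, 2849.98 and 2829 after dexamethasone by itself and 3116 and 3222 after DMSO. The combination arrays were the lowest pair, with the other 6 close to each other. It fell with the combination (-0.75 ± 0.036, limma adjusted p 0.00203), with a departure of -0.51 ± 0.051 and an unadjusted p of 0.000108, although 1 of its 3 probe sets lay on the other side of the sum. ORC1, the largest subunit of the origin recognition complex, departed most, by -0.68 ± 0.092. The helicase subunits MCM2 (-0.43), MCM3 (-0.35), MCM4 (-0.24), MCM5 (-0.43), MCM6 (-0.22) and MCM7 (-0.20), the polymerase subunits POLD1 (-0.61), POLE (-0.44) and POLA1 (-0.32), and the flap nuclease FEN1 (-0.51) were all below the sum. TOP2A, the mitotic topoisomerase, was the member above it (0.10 ± 0.10).

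**Figure D5:**
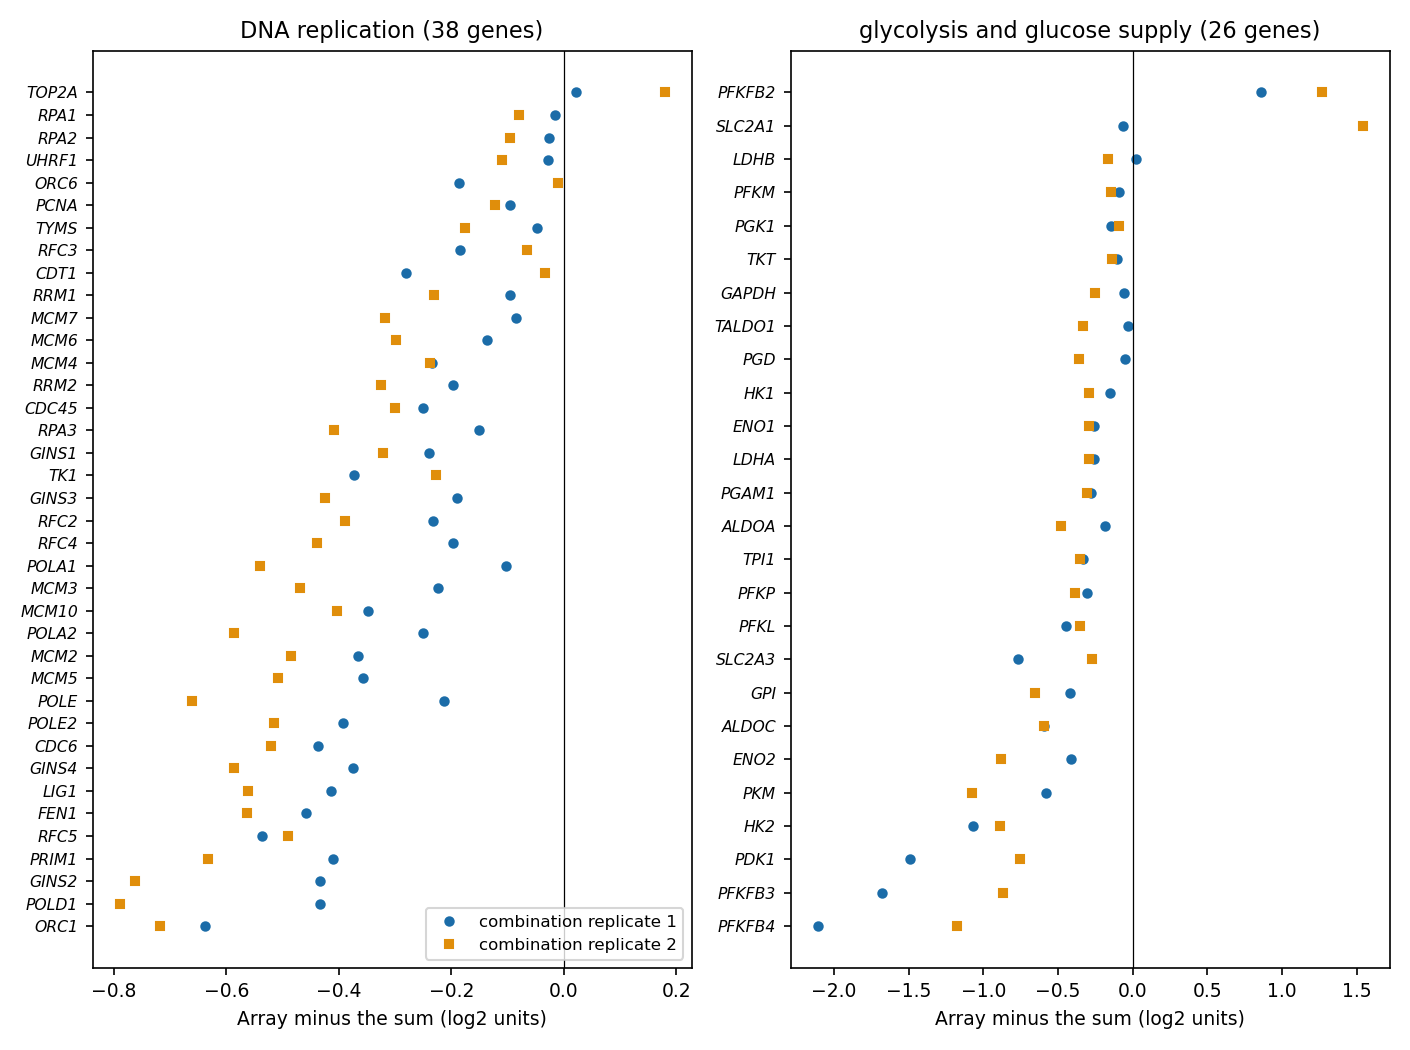
Each combination array minus the expected sum, in log2 units, for the 38 DNA replication genes (left) and 26 glycolysis genes (right), with zero marking the sum. Both arrays lie left of zero for 37 replication genes and for 23 glycolysis genes, against 4591 of all 10792 described genes. TOP2A and PFKFB2 are the top rows.

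Replication genes are textbook targets of E2F factors, so their promoters were read for an E2F site, taken as TTTCCCGC or TTTGGCGC on either strand within 250 bases before to 50 after the gene start. It was present in 16 of 33 replication promoters (48.5%), against 3.77% of 8860 promoters of described genes and 2.31% of all 27305 promoters. The median departure was -0.294 for the 16 genes with the site and -0.318 for the 17 without it, with ranges of -0.598 to -0.0696 and -0.678 to 0.10 that overlapped. The promoters of POLE2 (-0.45 ± 0.078), GINS1 (-0.28 ± 0.056), LIG1 (-0.49 ± 0.10) and CDC6 (-0.48 ± 0.10) are shown because these 4 hold the site and had the smallest p among such genes. They encode a subunit of DNA polymerase epsilon, a subunit of the GINS helicase complex, a DNA ligase and the loader of the MCM helicase. Sequences are from RefSeq, build GRCh38.p14, 5′ to 3′ on the gene's strand, with the match in capitals. The positions are POLE2, chr14:49688165-49688464 on the minus strand, GINS1, chr20:25407423-25407722 on the plus strand, LIG1, chr19:48170295-48170594 on the minus strand and CDC6, chr17:40287629-40287928 on the plus strand.
POLE2: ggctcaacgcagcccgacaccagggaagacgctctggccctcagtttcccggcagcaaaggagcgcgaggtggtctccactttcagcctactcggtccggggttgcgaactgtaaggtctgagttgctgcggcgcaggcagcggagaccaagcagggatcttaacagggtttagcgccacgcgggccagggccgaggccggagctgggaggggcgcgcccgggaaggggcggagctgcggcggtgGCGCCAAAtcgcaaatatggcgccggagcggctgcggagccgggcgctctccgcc
GINS1: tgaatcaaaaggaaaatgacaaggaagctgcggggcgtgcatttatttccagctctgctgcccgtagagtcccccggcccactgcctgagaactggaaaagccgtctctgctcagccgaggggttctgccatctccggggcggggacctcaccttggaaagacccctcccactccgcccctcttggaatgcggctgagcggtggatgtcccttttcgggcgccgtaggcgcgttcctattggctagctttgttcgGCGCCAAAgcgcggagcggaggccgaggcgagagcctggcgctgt
LIG1: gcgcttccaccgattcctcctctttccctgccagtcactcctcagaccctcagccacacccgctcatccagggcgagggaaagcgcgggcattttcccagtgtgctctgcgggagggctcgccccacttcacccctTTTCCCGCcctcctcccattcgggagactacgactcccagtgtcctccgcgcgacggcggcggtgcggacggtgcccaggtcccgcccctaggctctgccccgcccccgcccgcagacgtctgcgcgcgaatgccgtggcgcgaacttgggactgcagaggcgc
CDC6: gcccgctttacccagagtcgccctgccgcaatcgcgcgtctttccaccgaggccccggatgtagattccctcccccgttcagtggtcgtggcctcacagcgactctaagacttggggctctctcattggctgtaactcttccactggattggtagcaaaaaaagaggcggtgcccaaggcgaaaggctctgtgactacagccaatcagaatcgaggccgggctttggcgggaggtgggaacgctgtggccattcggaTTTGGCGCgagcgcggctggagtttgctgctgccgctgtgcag
In POLE2 and GINS1 the capitals show the site as it reads from the opposite strand, and in LIG1 and CDC6 on the gene's own strand. A match is a description of letters and was not tested as a binding site. In the windows of BCL2L11, IL7R, NR3C1, EOMES and TSC22D3 there was no match to the glucocorticoid receptor core AGAACA, its palindrome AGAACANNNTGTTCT, the RBPJ core TGGGAA or the E2F site, which describes these letters in these windows only. Among promoters of described genes 9.1% held the receptor core and 21.8% the RBPJ core.

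Other cell cycle families had medians nearer zero. CCNE1, cyclin E of the G1 to S transition, read 484 and 502 with both compounds, 821 and 885 with PF-03084014 only, 843 and 866 with dexamethasone only and 876 and 958 with vehicle. The combination arrays were the lowest, and the single compounds lay close to DMSO. CCNE1 fell with the combination (-0.89 ± 0.068, limma adjusted p 0.00376) with a departure of -0.69 ± 0.10 (unadjusted p 0.000588). CDK2, its kinase partner, departed by -0.24 ± 0.047 and CCNE2 by -0.46 ± 0.17. The 18 described G1 genes had a median of -0.11, with 5 below and 0 above at an unadjusted p under 0.05 (7.93% and 2.83% of all described genes). The 35 mitosis genes had a median of -0.11 with 2 below and 0 above, against the same 7.93% and 2.83%, and CCNB1, the mitotic cyclin, had -0.19 ± 0.058. BTG3, an anti-proliferative factor, lay below the sum (-0.47 ± 0.11) on the probe set used, but its 3 probe sets with a mean over 100 did not share a sign.

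Glycolysis genes lay below the sum about as far as replication genes. The median of 26 was -0.31, and 23 had both combination arrays below, against 4591 of all 10792 described genes. At an unadjusted p under 0.05, 8 were below and 1 above (7.93% and 2.83% of all described genes). Against DMSO, 13 fell with the combination (9.23%). The family median lay between -0.464 and -0.236 under the 12 settings. Its size depended on the DMSO array used, with -0.236 without the first and -0.397 without the second. For replication genes these values were -0.288 and -0.318. TPI1, triosephosphate isomerase, read 9196 and 9064 in the combination, against 12183 and 12334 under PF-03084014, 12067 and 12198 under dexamethasone and 12376 and 13327 under DMSO. The combination arrays were the lowest pair and the other 6 lay close together, and the departure was -0.34 ± 0.065 (unadjusted p 0.00258, limma adjusted p 0.319). ALDOC (-0.60 ± 0.12), GPI (-0.53 ± 0.13), PFKL (-0.40 ± 0.091), PKM (-0.83 ± 0.23), ENO1 (-0.28 ± 0.064) and LDHA (-0.28 ± 0.066), which encode enzymes from early to late glycolysis, lay below too. PFKFB4, PFKFB3 (-1.28 ± 0.58), PDK1 (-1.12 ± 0.51) and HK2 (-0.98 ± 0.57) had larger departures with larger errors. PFKFB2, described with the receptor targets, was the member above at an unadjusted p under 0.05, and SLC2A1, the main glucose transporter, had 0.74 ± 0.73 with its 2 combination arrays on opposite sides.

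Biosynthetic families followed in order. Cholesterol and fatty acid synthesis had a median of -0.19 over 23 genes, with 7 below and 0 above at an unadjusted p under 0.05 (7.93% and 2.83% of all described genes), and 14 fell with the combination against DMSO (9.23%). ELOVL6, a fatty acid elongase, read 725 and 869 after both compounds, 1785 and 1756 after PF-03084014 by itself, 1230.1 and 1269 after dexamethasone by itself and 1983 and 1959 after DMSO. Dexamethasone arrays lay below DMSO and combination arrays lower still, and the departure was -0.50 ± 0.12. The regulators SREBF1 (-0.49 ± 0.13) and SREBF2 (-0.67 ± 0.34), the squalene epoxidase SQLE (-0.48 ± 0.13) and the desaturase SCD (-0.47 ± 0.14) also lay below. Nucleotide and one-carbon synthesis had a median of -0.18 over 24 genes, with 3 below and 0 above (7.93% and 2.83%), and 13 fell with the combination (9.23%). PAICS, a purine synthesis enzyme, departed by -0.35 ± 0.085 on its brightest probe set, and 1 of its 3 probe sets lay on the other side. Proteasome subunits (-0.18, 29 genes) and respiratory chain subunits (-0.13, 29 genes) had 1 gene each below at an unadjusted p under 0.05, PSMA2 (-0.18 ± 0.061) and NDUFB5 (-0.21 ± 0.068). For both families the second combination array lay farther below, at -0.29 and -0.20, than the first, at -0.053 and -0.044.

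Several metallothioneins, small proteins that bind zinc, had positive departures. MT1G read 515 and 461 with both compounds, 596 and 443 with PF-03084014 only, 583 and 595 with dexamethasone only and 979 and 981 with vehicle. The DMSO arrays were the highest, the combination arrays lay below those with dexamethasone and within the pair with PF-03084014, and the departure was 0.66 ± 0.21. MT1H (0.53 ± 0.18) and MT1X (0.49 ± 0.17) lay above the sum as well. The 15 metallothioneins and zinc transporters had a median of 0.30, with 3 above and 0 below at an unadjusted p under 0.05, and the median stayed positive under the 12 settings, from 0.0925 to 0.349. Metallothionein genes are near-identical copies whose probe sets may share signal, so the members are not separate measurements.

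T-lineage genes were mixed. The 29 T cell receptor and thymocyte genes had a median of -0.10, with 1 above and 4 below at an unadjusted p under 0.05. CD1D, which presents lipids, read 1196 and 1059 in the combination, against 1236 and 1289.8 under PF-03084014, 1072 and 985 under dexamethasone and 849 and 812 under DMSO. Its combination arrays lay below PF-03084014 alone and above DMSO, overlapping those with dexamethasone, and the departure was -0.47 ± 0.11. RAG1 (-0.21 ± 0.23) and RAG2 (-0.23 ± 0.15), which cut antigen receptor genes, rose with the combination by 1.84 and 1.39, less than the log2 sum but more than the sum of linear increments. CCR9, a thymic homing receptor, rose with PF-03084014 and with the combination (1.47 log2 for the latter), with a departure of 0.28 ± 0.14. ITGA6, the integrin alpha chain of laminin receptors, rose with dexamethasone and with the combination (3.12 for the latter), with a departure of 0.35 ± 0.24. ID3, an inhibitor of E proteins, read 3389 and 2651 after both compounds, 5836 and 5852 after PF-03084014 by itself, 3963 and 3683 after dexamethasone by itself and 4633 and 4642 after DMSO. It was highest with PF-03084014 alone and lowest with the combination, where it fell against DMSO (-0.63 ± 0.12, limma adjusted p 0.0295), with a departure of -0.68 ± 0.16.

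Several families had medians near the value of all genes. Interferon-stimulated genes lay at -0.11, autophagy and lysosome genes at -0.086, cytosolic ribosomal proteins at -0.085 and ribosome biogenesis genes at -0.04. Amino acid supply genes (0.057) and stress response genes (0.018) were the larger biosynthetic groups with medians on the positive side. Both became negative under the shift to a common median, which lowers all departures by the same amount. TRIB3, a stress-induced pseudokinase, departed by -0.39 ± 0.073 on its brightest probe set while its other one had the opposite sign. NARS1, the asparaginyl-tRNA synthetase, departed by 0.20 ± 0.053. PIK3CD, the lymphoid phosphoinositide kinase subunit, departed by -0.33 ± 0.09 and CD83 by -0.32 ± 0.10. The combination arrays of CD83 lay between those with PF-03084014 and with dexamethasone alone, and those of PIK3CD overlapped the dexamethasone arrays.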

How the data were processed

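Each of the 8 arrays, 2 for each of the 4 treatments, gave a value for 54675 probe sets. The values that the authors deposited are intensities on a linear scale, and how they were summarised and normalized is not given in the sources used here. Biotin-labelled cRNA came from a 3 prime amplification kit of Affymetrix, per the labels. Intensities under 16 were set to 16 and converted to log2. Of 42898 annotated probe sets 1801 listed several genes and were left out, 41097 were used, 11777 had no annotation here, and the brightest probe set stood for each of 19775 genes.

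limma 3.58.1 (statmod 1.5.0, R 4.3.3) fitted group means to all 8 arrays, and eBayes with an intensity trend raised the 4 residual degrees of freedom by 1.36 in the median. The departure is the contrast of the combination minus dexamethasone minus PF-03084014 plus DMSO. The verbs rose and fell are used of genes with a two-sided p under 0.05 after Benjamini-Hochberg adjustment over all genes, which are called. Values after ± are standard errors of the fit, n = 2 arrays per group. They pool 1 spread over all groups, and the combination arrays varied most. The number of arrays limits the precision.

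Named were the 3 marker genes, the 12 genes on each side with the smallest p among those with both combination arrays at least 1 log2 unit from the sum, the member of each family with the smallest p, and a set of 23 pathway genes. Other family members, the remaining genes at least 1 unit away and the E2F letters were picked after values were seen. Genes and families were chosen with earlier results of these data known. Alternatives were quantile normalization, arrays shifted to a common median, a pseudocount of 16, a floor of 32, only genes over 100, the mean of all probe sets, other probe set and eBayes choices, array weights, a replicate block, the linear scale and each array left out. The file has no scan or batch information.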

Additional observations from a re-analysis of the deposited data

Results flagged for a closer look

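For some named genes every array moved one way when a compound was added to its partner and the opposite way when it was given alone. The difference itself is the departure, and limma called none after adjustment. Among all described genes this was so for PF-03084014 in 4.92% (167 above when added and below alone, 364 the reverse) and for dexamethasone in 6.04% (203 and 449). The values are log2 differences, against dexamethasone or PF-03084014 when added and against DMSO when alone.

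PF-03084014 was above when added and below alone for DRP2 (1.15 added, -0.239 alone), IL7R (0.293 added, -0.476 alone), NARS1 (0.0487 added, -0.153 alone), PFKFB2 (0.411 added, -0.653 alone), PIGR (0.683 added, -0.458 alone), TSC22D3 (0.497 added, -0.267 alone), ZDHHC22 (0.807 added, -0.422 alone) and ZNF705G (0.804 added, -0.63 alone). It was below when added and above alone for ID3 (-0.35 added, 0.334 alone) and MCOLN1 (-0.168 added, 0.303 alone). IL7R, PFKFB2 and TSC22D3 are known as genes that glucocorticoids induce, although for IL7R the change with dexamethasone alone was not called here. Each was lower with PF-03084014 alone than with DMSO.

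Dexamethasone was above when added and below alone for CRIM1 (0.182 added, -0.981 alone), DRP2 (1.04 added, -0.354 alone), GHRLOS (0.968 added, -0.425 alone), IRF4 (0.513 added, -0.811 alone), NARS1 (0.152 added, -0.0491 alone), PIGR (0.715 added, -0.426 alone), TMEM178B (1.18 added, -0.47 alone), ZDHHC22 (0.609 added, -0.619 alone) and ZNF705G (0.822 added, -0.612 alone). It was below when added and above alone for CD1D (-0.166 added, 0.308 alone), DUSP1 (-0.0493 added, 0.263 alone), IGHV1-69 (-0.209 added, 0.979 alone), MCOLN1 (-0.252 added, 0.218 alone), NDUFB5 (-0.0939 added, 0.118 alone), PSMA2 (-0.125 added, 0.0535 alone) and RRP9 (-0.353 added, 0.267 alone). ZDHHC22, ZNF705G, DRP2, PIGR, MCOLN1 and NARS1 appear for both compounds, at mean intensities of 171, 101, 119.6, 267, 186 and 7671. With 2 arrays per group, no test for a single outlying array could be made.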

How the results depend on the processing

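limma called 0 genes above and 0 below the sum under 18 of 19 alternatives, among them the mean intensity limit for the fit, and 0 described genes at limits of 50, 100 and 200. Leaving out 1 array gave 0 to 191 calls above and 0 to 566 below. All of these calls came without combination replicate 1, and none without combination replicate 2. In both fits the remaining combination array has no spread of its own and is assumed to vary as the other groups do. The array left without replicate 1 was the second, which stood apart in median intensity. Why the fits differed was not tested. At an unadjusted p under 0.05, leaving out 1 array gave 187 to 1351 genes above and 479 to 2648 below, and the shift to a common median gave 101 above. The replicate number as a block gave 0 calls and 346 above and 964 below at an unadjusted p. Same-numbered arrays of different groups correlated at 0.0495 to 0.207 in their deviations, and 2 numbers do not show that arrays are paired.

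Of the departures of single named genes and their alternatives, 34 changed sign, 1514 did not change in sign or call, and 15 passed the threshold, all 15 without combination replicate 1. With the mean of all probe sets the changed signs were NCSTN -0.10, DUSP1 0.44, PAICS 0.086, PIK3CD 0.21 and NOTCH1 -0.42. Without probe sets of the _x_at and _s_at kinds they were MAX 0.67, BTG3 0.26, PAICS 1.23 and TSC22D3 -0.051. After the shift to a common median, which lowers all departures alike, they were MYC -0.15, FKBP5 -0.12, MCL1 -0.095 and SGK1 -0.026. After quantile normalization the changed sign was DTX1 0.0058. On the linear scale, in intensity units, the changed signs were H2AC6 47.5, NRARP 75.8, NOTCH3 -56.8, MYC -21.2, TXNIP 54.3, SGK1 -149.9, RAG1 628 and RAG2 90.0. With 1 array left out the departure changed sign for 6 genes, and ran from -0.17 to 0.072 for DTX1, -0.12 to 0.48 for NOTCH3, -0.11 to 0.11 for MYC, -0.021 to 0.088 for FKBP5, -0.029 to 0.14 for MCL1 and -0.021 to 0.27 for SGK1. The cause was not tested. The spread between combination arrays and the 2 arrays per group limit what could be called.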

Other observations

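Replication-dependent histones had a median departure of -0.20 over 9 genes, with -0.12 and -0.27 for the 2 combination arrays, 7 members below zero and 2 above. FOXO, quiescence and anti-proliferative genes had a median departure of -0.078, immediate early and MAPK feedback genes -0.059, NF-kappaB genes 0.029, chemokine, homing and integrin genes 0.00067, and BMP, ID and SMAD genes 0.10, the last 3 becoming -0.12, -0.15 and -0.052 after the shift to a common median. H2AC6, a histone gene, rose with PF-03084014, with dexamethasone and with the combination (limma adjusted p 0.00267 for the last), and its departure was -0.35 ± 0.15. MAX, the partner of MYC, departed by -0.19 ± 0.087, with 4 of its 5 probe sets sharing that sign. ITGA5 (0.59 ± 0.24), an integrin chain, and MCOLN1 (-0.47 ± 0.18), a lysosomal channel, were dim. RPL8 (-0.10 ± 0.073) and RRP9 (-0.62 ± 0.26) were the ribosomal and ribosome biogenesis genes with the smallest p in their families, and neither had an unadjusted p under 0.05.

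Among markers of other cells, ITGAM, a myeloid integrin, read 112 and 102 with both compounds, 248 and 327 with PF-03084014 only, 218 and 208 with dexamethasone only and 329.7 and 372 with vehicle. Its combination arrays were the lowest and it fell with the combination (-1.72 ± 0.17, limma adjusted p 0.00565), with a departure of -0.69 ± 0.23. CSF1R, the other described myeloid marker, had the opposite sign (0.52 ± 0.52). Of the 2 described B-lineage markers CD22, a B-lineage receptor, departed by 0.59 ± 0.40 and CD79A by -0.085 ± 0.13. The 2 described stromal markers had a median of 0.82, with 0.40 and 1.24 for the 2 combination arrays: COL1A1, a stromal collagen, departed by 0.83 ± 0.43 and PECAM1 by 0.80 ± 0.46. None of CSF1R, CD22, CD79A, COL1A1 and PECAM1 had an unadjusted p under 0.05.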
